A study of Mus musculus with 18 samples.

Results

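Expression of 9 genes of cytokine signalling was followed through the maturation of XCR1+ dendritic cells (DCs) of the mouse thymus. The genes were 5 STAT transcription factors (Stat2, Stat3, Stat4, Stat5a and Stat6) and 4 of their feedback brakes (Socs1, Socs2, Socs3 and Cish). They were chosen by name from 19938 genes with a probeset that the array's annotation ties to exactly 1 symbol, and all 9 were found. For a gene with several such probesets, the one with the highest mean was used. Each value is a log2 intensity from 1 of 18 Affymetrix mouse whole-transcript arrays, 3 for each of 6 groups. All mice were untreated, of the B6 strain, and their age was not given. The 3 backgrounds were wild-type mice under specific-pathogen-free housing (CTRL), Ifnar1-KO mice under the same housing, which lack a chain of the type I interferon receptor, and germ-free wild-type mice (GF). In each background DCs were sorted as CD11b- CD11c+ MHCII+ CD172a- XCR1+ CD8a+ cells, either immature (CCR7-, CD117+) or homeostatically matured (CCR7+, CD117-). It is not stated if the 3 arrays per group stem from different mice or from pools of mice, so p-values measure the spread between arrays, which may be technical.

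Cytokine receptors of this kind signal through JAK kinases bound to their tails. The kinases phosphorylate STAT proteins, which pair up, enter the nucleus and switch on target genes. Among these targets are the SOCS genes and Cish, whose products bind the receptor or the kinase and shut the signal down. In DCs, STAT3 and STAT5 transmit growth and differentiation signals, STAT4 those of interleukin 12 and type I interferon, STAT6 those of interleukin 4 and 13, and STAT2 acts downstream of the interferon receptors.

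Short DNA motifs of 2 kinds tie this family to its own control, and the stretches that follow are shown because they place these motifs near annotated starts of the genes. The gamma-activated site TTCNNNGAA is bound by most STAT dimers, and the core of the interferon-stimulated response element, a pair of GAAA blocks with any 2 bases between them, is bound by the complex that holds STAT2. Both strands were searched in RefSeq windows (GRCm38.p6) from 250 bases before to 50 bases after a start. The first motif reads the same on both strands, and the second reads as a pair of TTTC blocks on the other. Of the 9 genes, 8 had 1 or 2 windows, 10 in all; Socs2 had no entry. Capitals mark the matches, and each stretch is written in the direction of transcription.
Cish, chr9:107296654-107296683, plus strand: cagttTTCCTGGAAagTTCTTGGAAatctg
Socs3, chr11:117969502-117969530, minus strand: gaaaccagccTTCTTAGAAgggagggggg
Socs1, chr16:10785597-10785626, minus strand: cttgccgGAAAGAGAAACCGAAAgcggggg
Stat2, chr10:128270266-128270295, plus strand: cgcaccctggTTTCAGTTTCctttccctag
Stat4, chr1:52008133-52008162, plus strand: aatgtcttcaGAAAGTGAAAtttagaacgg
Cish carried 2 gamma-activated sites side by side, from base 1 to 9 and from base 12 to 20 counted from its start. Socs3 carried 1, at bases -154 to -146 from the start used, and both this start and the site lie inside the annotated gene. Socs1 carried 2 overlapping interferon cores between bases -83 and -68. Stat2 carried 1 core on the other strand, at -222 to -213. Stat4 carried 1 core at -97 to -88 from the second of its 2 starts, which lies inside the gene. Over all 32851 windows, 8.30% held the first motif and 3.44% the second. No match of either motif was found in the windows of Stat3, Stat5a and Stat6, and those of Stat5a began inside the gene. For Stat4, whose level changed most in what follows, the 208 bases before the annotated gene (chr1:51986898-51987105, plus strand) held neither motif. They end before its first start, and are shown because they are the part of that start's window outside the gene.
Stat4 upstream: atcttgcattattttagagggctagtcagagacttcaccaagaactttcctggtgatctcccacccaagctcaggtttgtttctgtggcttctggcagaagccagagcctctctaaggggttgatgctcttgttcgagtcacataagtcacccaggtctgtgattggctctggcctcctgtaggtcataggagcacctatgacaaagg
A match describes the letters only; no binding was measured here.

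Ifnar1 itself read 8.06 to 8.09 in CCR7- cells of CTRL mice and 7.61 to 7.82 in their CCR7+ cells, against 7.27 to 8.07 and 6.07 to 7.61 in Ifnar1-KO mice, and was not called lower (-0.41 and -0.83, adjusted p 0.687 and 1.0). By replicate number, Ifnar1-KO replicate 1 read 8.07 and 7.61, within the CTRL ranges of the 2 stages. Replicates 2 and 3 read below these ranges, at 7.27 and 7.66 in CCR7- cells and 6.07 and 6.96 in CCR7+ cells. Which part of the gene is deleted is not given, so this probeset does not check the genotype. The cause of the split between replicates was not tested. All 10 markers of XCR1+ DCs lay above the range of 1194 olfactory and vomeronasal receptor genes, used as a background reference (their 95th percentile in a group), in 5 groups and 9 of 10 did in GF CCR7+ cells, with a mean level of 9.95 to 10.13 on CCR7- and 7.07 to 8.33 on CCR7+ arrays; 6 of the 10 fell with maturation in each background and 1, Batf3, rose (in CTRL from 8.55 to 9.50). The mean of 6 mature DC markers, which include the sort gene Ccr7, was 7.35 to 8.33 on CCR7- and 10.81 to 11.12 on CCR7+ arrays. All 4 natural killer markers stayed within the reference range in every group, while all 5 plasmacytoid DC markers and 4 of 5 thymic epithelium markers lay above it. In each CTRL stage 3 of 4 B cell, 4 of 6 macrophage and 4 of 5 CD172a+ DC markers lay within it. Cd79b, C1qa, C1qc and Sirpa, the gene of CD172a, lay above it in every group. Sirpa had means of 4.99 in CCR7- and 5.88 in CCR7+ cells of CTRL. The mean of 18 thymocyte markers was 4.60 to 5.26 on CCR7- arrays and 5.31 to 6.23 on 8 CCR7+ arrays, with the ninth, replicate 2 of Ifnar1-KO, at 7.84. Of these 18 markers, 4 were called higher with maturation in CTRL, 4 in Ifnar1-KO and 3 in GF, and none lower. Of all genes, 12.6%, 9.42% and 9.53% were called higher. Called or not, each of the 18 markers had a higher mean in CCR7+ than in CCR7- cells in every background. The part of thymocyte RNA in the changes of the STAT and SOCS genes was not tested; T-lineage cells also express several of these genes.

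During maturation 4 of the 5 STAT genes and 1 of the 4 brakes rose in all 3 backgrounds. Stat4 and Socs2 rose most, Stat3, Stat5a and Stat6 rose by 1.67-fold to 3.09-fold, and the brakes Socs3 and Cish passed the test in no background. In CTRL 5 of 9 genes were called higher and none lower (limma, Benjamini-Hochberg adjusted p under 0.05 over all genes), where 12.6% of all genes were called higher and 13.6% lower. In Ifnar1-KO 6 of 9 were called higher and none lower, with Socs1 as the addition, against 9.42% of all genes called higher and 10.8% lower, and in GF 5 of 9 higher and none lower, against 9.53% and 11.8%. The median log2 change of the 9 genes was 0.74 in CTRL, 1.02 in Ifnar1-KO and 0.98 in GF, beside 0.07, 0.00 and 0.03 over all genes. Stat3, Stat4, Stat5a, Stat6 and Socs2 were called higher in all 3 backgrounds, as 15.4% of all genes were called in 1 direction in all 3. By arrays alone, the stages did not overlap for 8 of the 9 genes in CTRL (49% of all genes), 7 in Ifnar1-KO (29.6%) and 7 in GF (33.6%). The genes were picked in knowledge of earlier results of these arrays, in which Stat4 and Socs2 stood out. In bulk RNA of sorted cells, fewer cells of a type and less RNA per cell cannot be told apart.

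**Figure D1:**
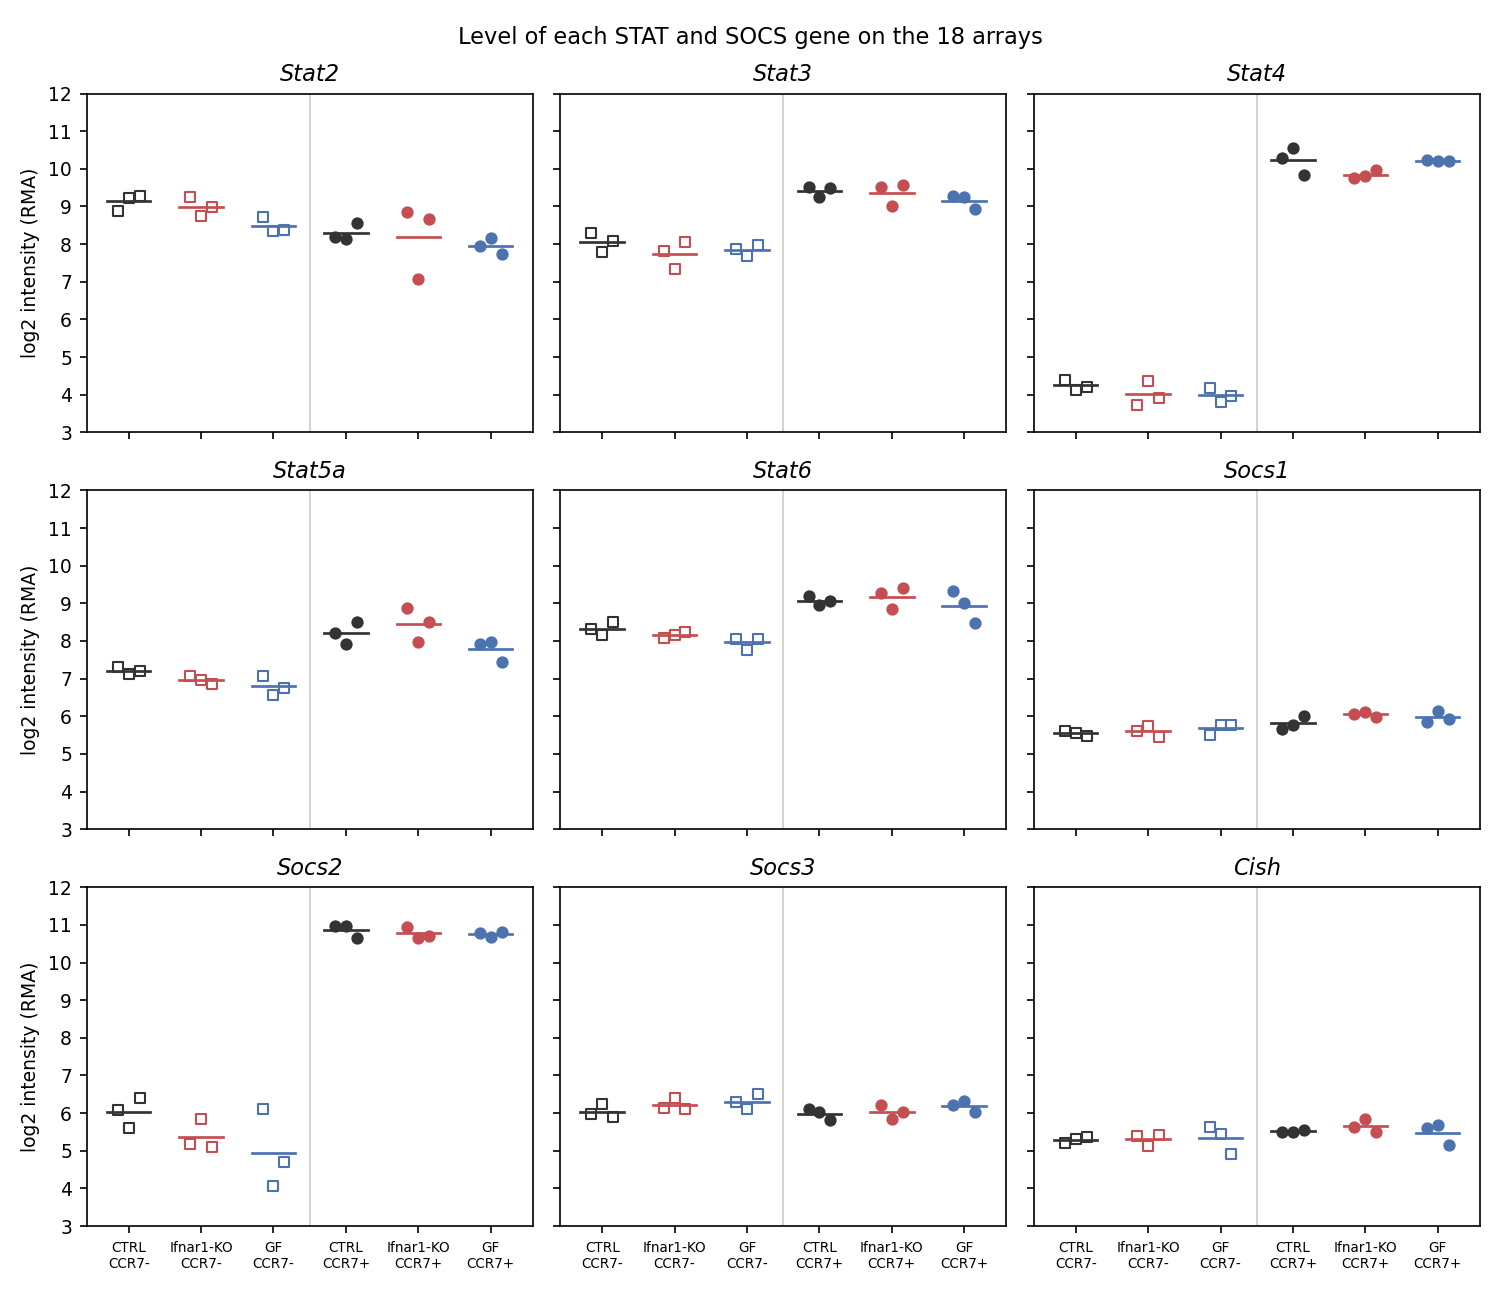
Log2 intensity of each gene on the 18 arrays, by group (open squares, CCR7- cells; filled circles, CCR7+ cells; grey, CTRL; red, Ifnar1-KO; blue, GF; line, group mean of 3 arrays, drawn in the order of replicates 1 to 3). The CCR7+ arrays of Stat3, Stat4, Stat5a and Socs2 all lie above the CCR7- arrays, and Stat2 shows 1 low array at 7.08 among the Ifnar1-KO CCR7+ arrays.

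Stat4, the factor of the interleukin 12 response, went from near background to a high signal. On the CTRL CCR7- arrays it read 4.40, 4.13 and 4.21, and on the CTRL CCR7+ arrays 10.30, 10.55 and 9.85. The Ifnar1-KO arrays read 3.73, 4.37 and 3.92 in CCR7- cells and 9.75, 9.80 and 9.96 in CCR7+ cells. The GF arrays read 4.17, 3.81 and 3.96 against 10.23, 10.20 and 10.21. No CCR7+ array came near any CCR7- array, and the 3 GF CCR7+ arrays were the tightest group, with an SD of 0.014. The log2 change was 5.98 ± 0.17 (SE, n = 3 arrays per group) in CTRL, a measured 63.2-fold with an adjusted p of 4.11e-11. Its rank by size was 1 of 19938 genes there, 5 in Ifnar1-KO and 2 in GF. In these the change was 5.83 ± 0.17 in Ifnar1-KO and 6.24 ± 0.17 in GF. The CCR7- means of Ifnar1-KO (4.01) and GF (3.98) lay within the reference range and that of CTRL (4.25) just above its limit of 4.23, so these changes may be lower bounds. Background differs between probesets, which limits this reading.

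Stat3, which carries signals of the interleukin 6 and interleukin 10 families and of FLT3 ligand, rose in every background from an already clear level. In CTRL it read 8.30, 7.78 and 8.08 in CCR7- cells and 9.51, 9.25 and 9.49 in CCR7+ cells. In Ifnar1-KO it read 7.82, 7.34 and 8.06 against 9.53, 9.0 and 9.57, and in GF 7.88, 7.68 and 7.98 against 9.28, 9.24 and 8.94. The lowest CCR7+ array (8.94) stood above the highest CCR7- array (8.30), a separation of all 9 against 9 arrays that 15.3% of all genes showed in either direction. The log2 changes were 1.36 in CTRL, 1.63 in Ifnar1-KO and 1.31 in GF (SE 0.19), with adjusted p of 8.41e-05, 1.85e-05 and 0.000141.

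Stat5a, which responds to GM-CSF and to cytokines of the common gamma chain, rose by 1.0 ± 0.21 in CTRL, 1.49 ± 0.21 in Ifnar1-KO and 0.98 ± 0.21 in GF (adjusted p 0.00231, 9.49e-05 and 0.00316). Its CCR7- arrays read 7.32, 7.12 and 7.19 in CTRL, 7.07, 6.96 and 6.86 in Ifnar1-KO, and 7.08, 6.56 and 6.75 in GF. Its CCR7+ arrays read 8.22, 7.92 and 8.49 in CTRL, 8.88, 7.98 and 8.49 in Ifnar1-KO, and 7.92, 7.98 and 7.44 in GF. The stages did not overlap, though GF CCR7+ replicate 3 (7.44) came close to the highest CCR7- array (7.32). Stat5b, its close relative and direct neighbour on chromosome 11, rose too, by 0.61 ± 0.16, 0.96 ± 0.16 and 0.79 ± 0.16.

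Stat6, the transducer of interleukin 4 and 13, had the smallest changes of the 4 STAT genes that rose. In CTRL it read 8.32, 8.16 and 8.51 in CCR7- cells and 9.18, 8.95 and 9.06 in CCR7+ cells. In Ifnar1-KO the arrays read 8.08, 8.16 and 8.24 against 9.28, 8.86 and 9.40, and in GF 8.06, 7.77 and 8.05 against 9.34, 9.0 and 8.47. Stages stood apart within each background, but GF CCR7+ replicate 3 (8.47) read below CTRL CCR7- replicate 3 (8.51). The log2 changes were 0.74 in CTRL, 1.02 in Ifnar1-KO and 0.98 in GF (SE 0.19; adjusted p 0.00814, 0.000838 and 0.00115).

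Stat2, the interferon-specific STAT, was the STAT gene with lower means in CCR7+ cells. In CTRL it read 8.88, 9.24 and 9.29 in CCR7- cells and 8.19, 8.14 and 8.56 in CCR7+ cells. In GF it read 8.71, 8.34 and 8.39 against 7.95, 8.17 and 7.74. In both of these backgrounds every CCR7+ array was below every CCR7- array. In Ifnar1-KO the arrays overlapped, at 9.25, 8.75 and 8.99 against 8.86, 7.08 and 8.66. Taken by replicate number, the CCR7+ array was the lower in every Ifnar1-KO pair, by -0.39, -1.68 and -0.33, and in every pair of CTRL and GF. The log2 changes of -0.84, -0.80 and -0.53 (SE 0.34) in CTRL, Ifnar1-KO and GF missed the threshold, with adjusted p of 0.0826, 0.124 and 0.333. The pooled error rests on 1 array, Ifnar1-KO CCR7+ replicate 2 (7.08), which gave its group an SD of 0.98 where the other 5 groups had 0.20 to 0.25. Without that array Stat2 was called lower in CTRL (adjusted p 0.00176) and in GF (0.0365) at the same size of change, while the Ifnar1-KO change shrank from -0.80 to -0.24 (adjusted p 0.50), so most of that difference rests on this array. With replicate pairs as a block it was called lower in CTRL (0.0346) and in Ifnar1-KO (0.0495). On this array the thymocyte markers were highest (7.84). Stat3, Stat5a and Stat6 were the lowest of their group (9.0, 7.98 and 8.86), as were Socs2 (10.66) and Socs3 (5.85). Socs1 and Cish were the highest (6.11 and 5.83), and Stat4 (9.80) lay between the other arrays of the group. The part of thymocyte RNA in these values was not tested.

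**Figure D2:**
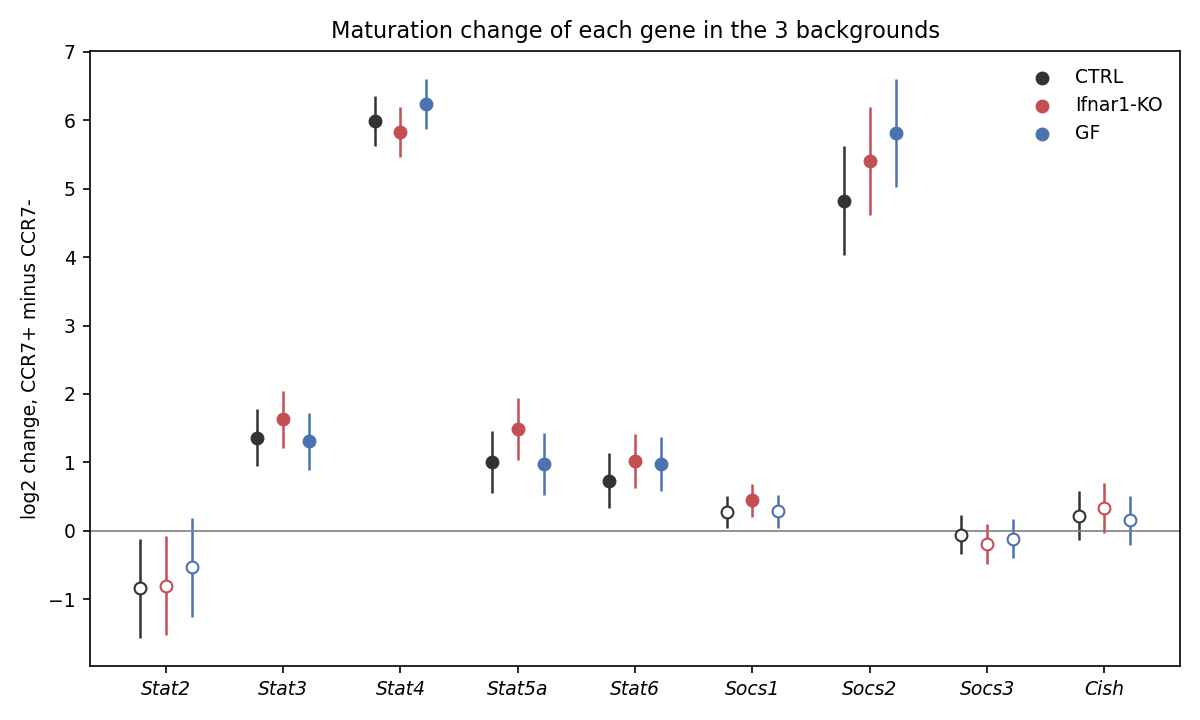
Log2 change from CCR7- to CCR7+ cells for each gene in CTRL (grey), Ifnar1-KO (red) and GF (blue), with 95% confidence intervals from limma, 3 arrays per group; filled points passed the test. Stat4 and Socs2 stand between 4.82 and 6.24, Stat3, Stat5a and Stat6 between 0.74 and 1.63, and Stat2 lies below 0 without passing the test.

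Socs2, best known as the brake on growth hormone receptor signalling and also a target of STAT5, rose most of the brakes. On the CTRL arrays it read 6.09, 5.61 and 6.41 in CCR7- cells and 10.96, 10.96 and 10.65 in CCR7+ cells. The Ifnar1-KO arrays read 5.19, 5.83 and 5.10 against 10.95, 10.66 and 10.72, and the GF arrays 6.10, 4.07 and 4.70 against 10.79, 10.68 and 10.82. The 9 CCR7+ arrays lay within 0.32 of each other, while the 9 CCR7- arrays spread over 2.34, from GF replicate 2 to CTRL replicate 3. The log2 changes were 4.82 ± 0.37 in CTRL (28.3-fold, adjusted p 1.90e-07), 5.40 ± 0.37 in Ifnar1-KO and 5.81 ± 0.37 in GF. Their ranks by size among all genes were 17, 9 and 3.

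These Socs2 values carry a limit of the array's annotation. The probeset with the highest mean, to which they belong, has a number that falls between those of 8 neighbouring probesets whose genes all lie on chromosome 12, whereas Socs2 lies on chromosome 10. The other Socs2 probeset sits among probesets of chromosome 10 (7 of 8 neighbours). It also rose, in CTRL from 4.31, 4.27 and 4.57 to 7.94, 8.04 and 8.13, in Ifnar1-KO from 3.96, 3.87 and 4.13 to 8.03, 7.63 and 7.75, and in GF from 4.58, 3.70 and 3.49 to 8.03, 7.79 and 7.90. Its stages did not overlap either, and its log2 changes were 3.65, 3.82 and 3.98 (SE 0.21; adjusted p 1.29e-08, 7.95e-09 and 5.72e-09 over all probesets). Its CCR7- means in Ifnar1-KO (3.99) and GF (3.92) lay within the reference range (limits 4.38 and 4.31) and that of CTRL (4.39) just above its limit, so these changes too may be lower bounds. Whether the first probeset also reads a copy of the gene on chromosome 12 cannot be settled from the files, so its size of change is uncertain. Each of the 8 other genes had its probeset among neighbours of its own chromosome.

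Socs1, a strong brake on interferon and JAK signalling, had small changes and passed the test in Ifnar1-KO. In Ifnar1-KO it read 5.60, 5.74 and 5.45 in CCR7- and 6.05, 6.11 and 5.98 in CCR7+ cells, a log2 change of 0.45 ± 0.11 (adjusted p 0.00827). In CTRL it read 5.62, 5.56 and 5.47 against 5.67, 5.78 and 6.02, and in GF 5.49, 5.77 and 5.77 against 5.85, 6.13 and 5.92. No stage overlapped within a background, but the changes of 0.27 and 0.29 in CTRL and GF missed the threshold (adjusted p 0.0842 and 0.0849). That Socs1 passed in Ifnar1-KO alone does not show a difference between backgrounds: the difference from CTRL was 0.17 with a 95% interval from -0.16 to 0.51.

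Socs3, the brake on the interleukin 6 receptor family, read 5.89 to 6.51 on the 9 CCR7- arrays (median 6.15) and 5.83 to 6.32 on the 9 CCR7+ arrays (median 6.04), which overlapped throughout. Its log2 changes were -0.05, -0.19 and -0.11 (SE 0.13), and the 95% interval in CTRL ran from -0.34 to 0.24. A second Socs3 probeset changed by 0.09, -0.33 and -0.39 (SE 0.23) in CTRL, Ifnar1-KO and GF. It passed in none of them (limma, adjusted p 0.797, 0.410 and 0.284 over all probesets). In GF its CCR7+ arrays (4.96 to 5.37) lay below its CCR7- arrays (5.41 to 5.67), where 33.6% of all genes did not overlap. Cish, the brake on STAT5 signals and the gene with the tandem gamma-activated sites, read 4.92 to 5.63 (median 5.35) on CCR7- and 5.15 to 5.83 (median 5.54) on CCR7+ arrays. Its CTRL arrays read 5.20, 5.32 and 5.35 against 5.51, 5.50 and 5.54, with no overlap, yet the change of 0.22 ± 0.17 did not pass (adjusted p 0.357). In Ifnar1-KO and GF its changes were 0.34 and 0.15, with adjusted p of 0.213 and 0.617. The 95% interval of the CTRL change ran from -0.14 to 0.59.

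Ordered by group mean, the log2 levels split by stage for 8 of the 9 genes, Socs3 being the exception. The share of all genes with such a split was not counted, so nothing particular to these genes is read from it. For Stat4 the order ran from CTRL (10.23) and GF (10.22) to Ifnar1-KO (9.83) among CCR7+ cells, then CTRL (4.25), Ifnar1-KO (4.01) and GF (3.98) among CCR7- cells; neighbours within a stage overlapped in their arrays, except GF and Ifnar1-KO CCR7+ cells, whose difference was not tested. For Socs2 it ran CTRL (10.86), Ifnar1-KO (10.78) and GF (10.77), then CTRL (6.04), Ifnar1-KO (5.38) and GF (4.95), with overlap between neighbours within a stage. Stat3 followed the same order among CCR7+ cells, at 9.42, 9.37 and 9.15, and then CTRL (8.05), GF (7.85) and Ifnar1-KO (7.74), again with overlapping neighbours. Stat5a and Stat6 were highest in Ifnar1-KO among CCR7+ cells (8.45 and 9.18) and lowest in GF CCR7- cells (6.80 and 7.96). Neighbours within a stage overlapped in their arrays, with an exception for each gene. These were Stat5a in CTRL and Ifnar1-KO CCR7- cells, and Stat6 in Ifnar1-KO (8.08 to 8.24) and GF (7.77 to 8.06) CCR7- cells. Socs1 was also highest in Ifnar1-KO CCR7+ cells (6.05), and its lowest mean was in CTRL CCR7- cells (5.55). Stat2 ran the other way, from CTRL CCR7- (9.13) and Ifnar1-KO CCR7- (9.0) cells down to GF CCR7+ cells (7.95).

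The next question was whether type I interferon signalling or the microflora altered these changes. None of the 9 genes differed in its maturation change between Ifnar1-KO or GF and CTRL, nor did any of all genes (limma, 0% called in both comparisons). At an unadjusted p under 0.05 there were 901 of all genes for Ifnar1-KO and 660 for GF, and 0 of the 9. Both comparisons share the CTRL arrays. For Stat4 the difference was -0.16 (95% interval -0.68 to 0.36) in Ifnar1-KO and 0.25 (-0.27 to 0.77) in GF. For Stat3 it was 0.26 (-0.33 to 0.85) and -0.06 (-0.65 to 0.53), for Stat5a 0.49 (-0.15 to 1.13) and -0.02 (-0.66 to 0.62), and for Stat6 0.28 (-0.28 to 0.85) and 0.24 (-0.32 to 0.80). The intervals were widest for Stat2, at 0.04 (-0.98 to 1.06) and 0.31 (-0.71 to 1.33), and for Socs2, at 0.58 (-0.54 to 1.70) and 0.99 (-0.13 to 2.11). They were narrowest for Socs1, where the GF difference was 0.01 (-0.32 to 0.35). A p that missed the threshold does not show equal changes.

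Within a stage, no gene of the 9 was called between backgrounds. In CCR7- cells 0% of all genes were called for Ifnar1-KO minus CTRL and 0.015% for GF minus CTRL, and in CCR7+ cells 0.015% and 0.0301%. At an unadjusted p under 0.05 stood Stat4 in Ifnar1-KO CCR7+ cells (-0.40, 95% interval -0.77 to -0.03, p 0.0362), as did 582 of all 19938 genes there, and Socs2 in GF CCR7- cells, given next, where 1260 did. None of the 9 did in the 2 other comparisons. In GF CCR7- cells Stat2, Stat5a and Stat6 read below all CTRL CCR7- arrays, a lack of overlap that 14.8% of all genes showed in either direction, with differences of -0.66, -0.41 and -0.37 (adjusted p 0.766 for each). In Ifnar1-KO CCR7- cells Stat5a did so as well, at -0.25 (adjusted p 0.724), against 15.4% of all genes. No gene of the 9 stood clear of CTRL in CCR7+ cells of either background, where 6.94% and 11.5% of all genes did. Stat2, whose product acts below the deleted receptor chain, differed by -0.14 (95% interval -0.86 to 0.58) in CCR7- and by -0.10 (-0.82 to 0.62) in CCR7+ cells of Ifnar1-KO mice.

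**Figure D3:**
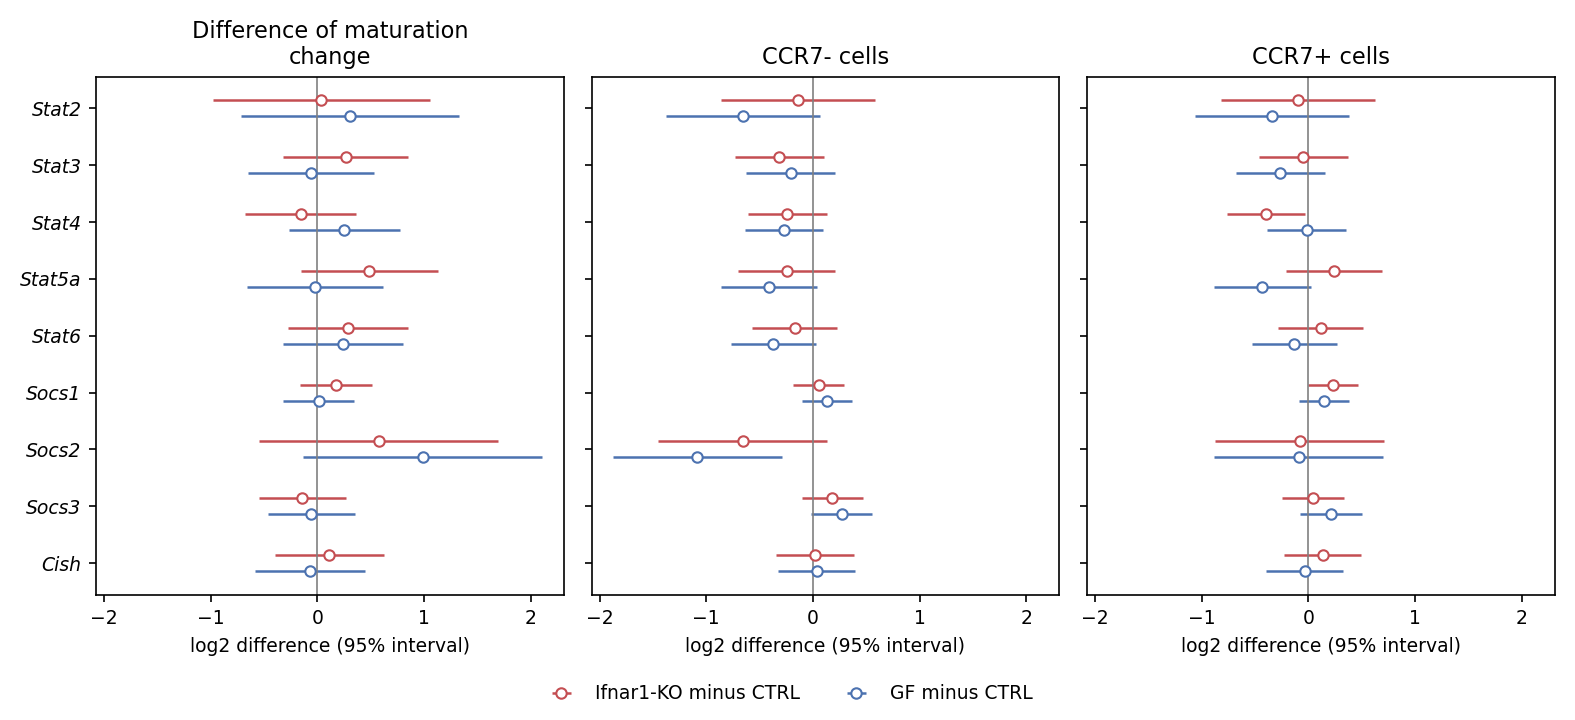
Differences from CTRL of each gene for Ifnar1-KO (red) and GF (blue), as log2 values with 95% confidence intervals from limma, 3 arrays per group: in the maturation change (left), in CCR7- cells (middle) and in CCR7+ cells (right). None passed the adjusted test; the difference farthest from 0 is Socs2 in GF CCR7- cells, at -1.08.

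Socs2 in CCR7- cells was the most variable reading. The GF mean lay 1.08 ± 0.37 below that of CTRL (unadjusted p 0.0108, adjusted 0.766) and the Ifnar1-KO mean 0.66 ± 0.37 below (adjusted 0.681). GF replicate 1 (6.10) stood among the CTRL arrays, and GF replicates 2 and 3 (4.07 and 4.70) below every other array. Without GF CCR7- replicate 1 the difference was -1.65 and was called (adjusted p 0.0155), beside 41 genes in all. The mean of the 6 mature DC markers on these arrays was 8.13, 8.18 and 8.11 in CTRL, 7.41, 8.05 and 7.35 in Ifnar1-KO, and 8.33, 7.37 and 7.46 in GF. GF replicate 1 and Ifnar1-KO replicate 2, the arrays of their groups with the most Socs2, were also those with the highest marker means. In both groups all 3 arrays had the same order by Socs2 and by marker mean. In CTRL the order was the opposite, but the marker means lay so close together, from 8.11 to 8.18, that their order says little. There replicate 3 had the most Socs2 (6.41) and the lowest marker mean, and replicate 2 the least Socs2 (5.61) and the highest marker mean. The part of mature cells or of mature-cell RNA in the CCR7- sort in these values was not tested. The Socs2 probeset of chromosome 10 differed by -0.46 ± 0.21 in GF CCR7- cells (adjusted p 0.768), but its GF mean lay within the reference range and its CTRL mean just above it, so this value says little about Socs2.

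**Figure D4:**
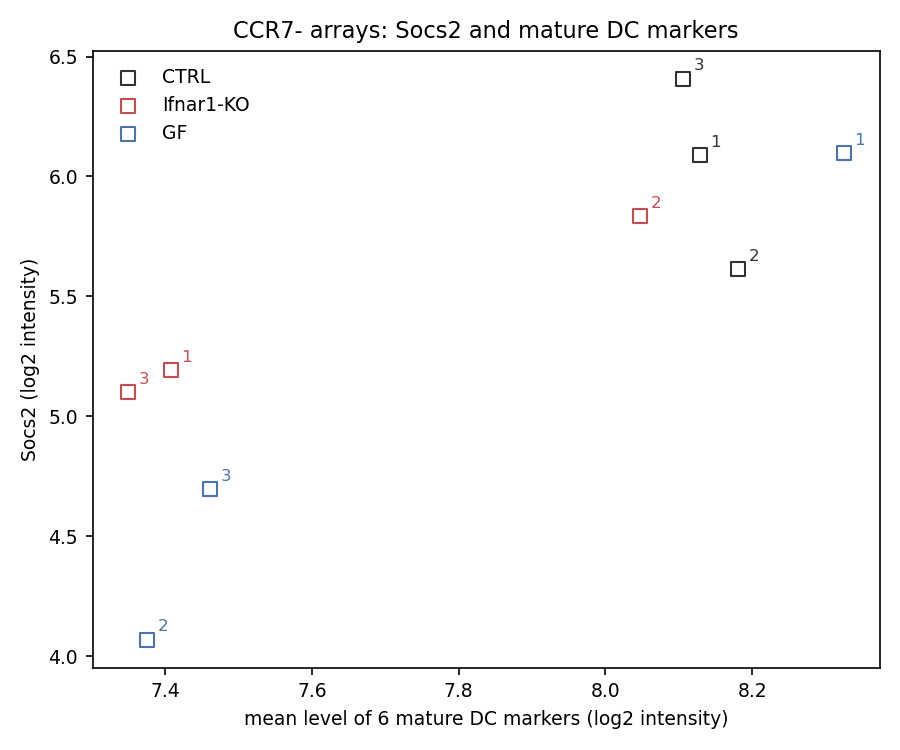
Socs2 (vertical axis, log2 intensity) against the mean log2 intensity of 6 mature DC markers (horizontal axis) on the 9 CCR7- arrays (grey, CTRL; red, Ifnar1-KO; blue, GF; numbers, replicates). GF replicate 1 (8.33 and 6.10) and Ifnar1-KO replicate 2 (8.05 and 5.83) lie apart from the other arrays of their groups, close to the CTRL arrays.

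The genes around the family were read from lists chosen in the same knowledge of earlier results. The counts stand beside 12.6% of all genes called higher and 13.6% called lower in CTRL, and nothing particular to a list is read from them. Among cytokine receptors that use STATs, 8 of 28 measured rose and 2 fell in CTRL, and the median change was 0.05. Il21r rose from a mean of 5.68 to 9.86 (log2 change 4.19 ± 0.20), Il15ra from 6.64 to 10.66 (4.03 ± 0.20) and Il23r, which signals through STAT3 and STAT4, from 3.49 to 7.28 (3.79 ± 0.28), a change that may be a lower bound since the first mean lay within the reference range. Il4ra, the receptor chain above STAT6, rose from 5.91 to 9.24 (3.33 ± 0.12) and was named after its values were seen. Ifngr1, a chain of the interferon gamma receptor, fell by 2.85 ± 0.24 and Il6ra, which signals through STAT3, fell by 1.84 ± 0.29. All 6 receptors passed in the same direction in Ifnar1-KO and GF.

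Of 20 cytokines that act through STATs, 7 rose and none fell in CTRL. They included Il15, which supports memory and killer lymphocytes (2.91 ± 0.20), Il12b, the shared chain of interleukins 12 and 23 (2.62 ± 0.50), and Osm (1.54 ± 0.32). Of the 3 JAK kinases measured, Tyk2, used by the interferon and interleukin 12 receptors, rose by 1.01 ± 0.25 and passed in CTRL and GF but not in Ifnar1-KO (0.67, adjusted p 0.0741). Jak2, which serves many cytokine receptors, was named although it was not called in CTRL (0.62, adjusted p 0.103). It passed in Ifnar1-KO (0.85, adjusted p 0.0359) and GF (0.89, 0.0269). Neither pattern was read as a difference between backgrounds.

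Brakes outside the SOCS family went both ways, 3 of 12 up and 3 down in each background. The STAT inhibitor Pias3 rose by 2.10 ± 0.28 in CTRL, the phosphatase Ptpn2 by 0.94 ± 0.15 and Pias1 by 0.74 ± 0.12. The ubiquitin ligase Cbl fell by 1.66 ± 0.22, and the phosphatases Ptprc and Ptpn11 fell by 1.47 ± 0.18 and 1.11 ± 0.22. Of 5 further STAT and SOCS genes measured, Stat5b rose in all 3 backgrounds, Socs5 fell in CTRL (-0.64 ± 0.19, adjusted p 0.0191) without passing in Ifnar1-KO or GF, and Socs4, Socs6 and Socs7 were not called.

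Listed target genes of the factors did not move as blocks. Of 15 measured targets of STAT3 and STAT5, 6 rose and 4 fell in CTRL: the cell cycle gene Ccnd2 (2.09 ± 0.24), the survival gene Bcl2l1 (2.06 ± 0.30) and Bcl3 (1.48 ± 0.32) were the largest rises, and Myc (-2.98 ± 0.21), Ccnd1 (-1.83 ± 0.23) and Fos (-1.74 ± 0.23) the largest falls. Of 12 targets of STAT6, 3 rose and none fell: Irf4 (2.39 ± 0.30, from a CCR7- mean of 4.16 within the reference range) and the chemokines Ccl17 (2.36 ± 0.37) and Ccl22 (1.98 ± 0.45). Of 9 targets of STAT4, Hlx (1.44 ± 0.17) was the 1 gene called in CTRL, a share near that of all genes. Of 12 targets of STAT2, Ifit1 (1.32 ± 0.27) and Rsad2 (1.09 ± 0.24) rose while Ifit2 (-1.93 ± 0.55) and Irf7 (-1.38 ± 0.25) fell in CTRL. In Ifnar1-KO Ifit1 and Rsad2 passed again and Ifit2 and Irf7 did not (-1.12 and -0.69, adjusted p 0.200 and 0.0722). Other factors also drive many of these genes. No list gene was called between backgrounds or in a difference of maturation.

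**Figure D5:**
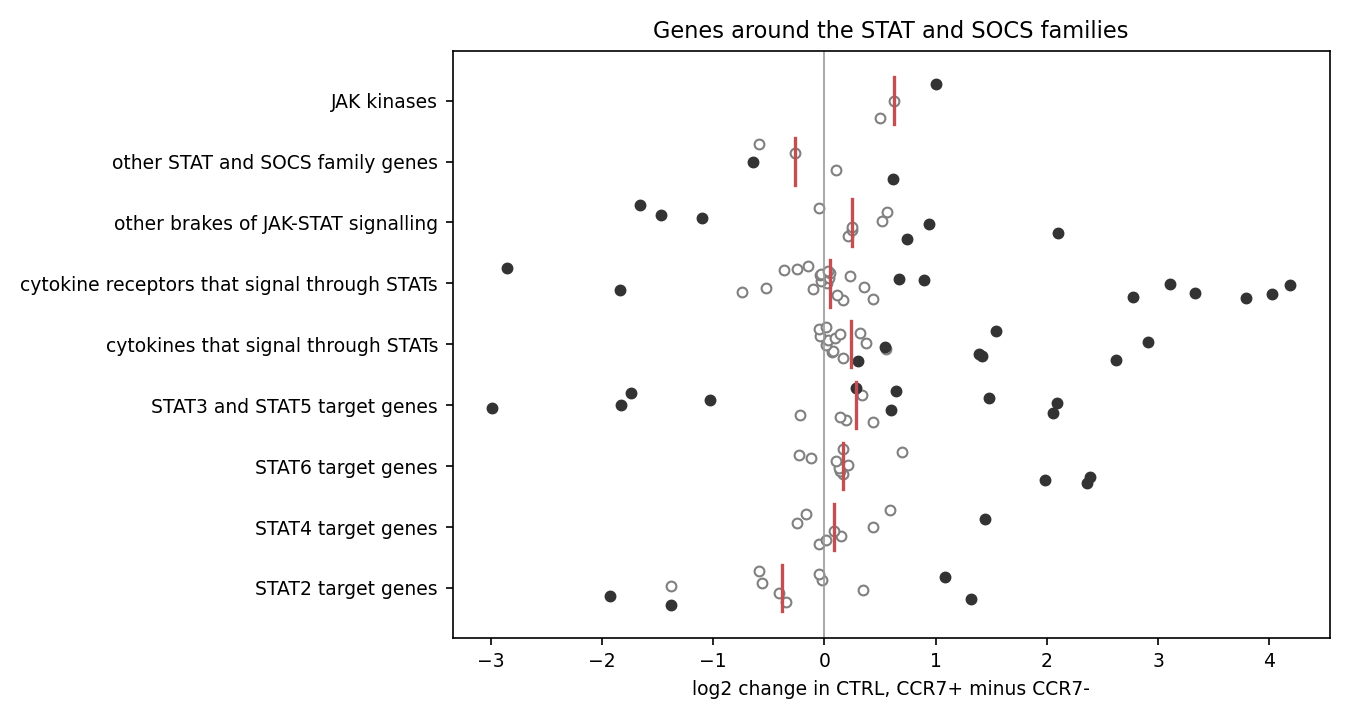
Log2 change from CCR7- to CCR7+ cells in CTRL for every measured gene of 9 lists (filled, passed the test; open, did not; red bar, median of the list; height within a row has no meaning). The receptor row reaches from -2.85 for Ifngr1 to 4.19 for Il21r, and the STAT3 and STAT5 target row from -2.98 for Myc to 2.09 for Ccnd2.

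The genes most like each member over the 18 arrays were named as a description; the arrays share the 2 stages and the normalisation, so a gene with a large stage change resembles many others. Stat4 was most like Cd200 (Pearson r 0.998), Insl6 and Rbpms, and Socs2 most like Samsn1 (0.998), Mreg and Nudt17. Stat3 was most like Iffo2 (0.983), Stat5a like Icosl (0.976), a costimulatory ligand, Stat6 like Sh3kbp1 (0.964) and Stat2 like Slfn5 (0.955), a gene of the interferon-responsive Schlafen family. The closest genes to Socs1, Socs3 and Cish reached 0.909 (Dab1), 0.819 (Ifi35) and 0.817 (Olfr1032), each the highest of 18247 genes compared. Olfr1032 is an olfactory receptor gene, the kind used here as background reference, so this likeness says little about Cish. Each group's mean was then subtracted, which removes the mean difference between stages but not the differences between arrays of a group. Samsn1 (0.947) stayed the closest gene to Socs2, followed by the chemokine Ccl22 (0.940) and Fabp5 (0.932), and Icosl (0.930) stayed closest to Stat5a. Stat4 then had Mxi1 (0.884) as its closest gene and Stat2 had Dlg1 (0.968), followed by Slc7a6os (0.926) and Slfn5 (0.925). Few arrays can weigh heavily here: Socs2 spread widely on the GF CCR7- arrays (6.10, 4.07 and 4.70). Stat2 had 1 low array, Ifnar1-KO CCR7+ replicate 2 (7.08). The part of such arrays in these values was not tested.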

How the data were processed

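RNA of sorted thymic DCs was amplified with NuGEN Ovation Pico chemistry and hybridised to 18 arrays, per the labels' protocols. The authors deposited log2 intensities made with RMA in the oligo package, per the submitters' processing notes; the sources used here give neither their versions nor which arrays were normalised as 1 set. Values were not normalised again.

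Of 35556 probesets, 21789 with exactly 1 symbol were kept, 1621 with several and 12146 without one were left out, and no gene was filtered by level. For 999 genes with more than 1 probeset, the one with the highest mean was used. One mean per group was fitted to all 18 arrays with limma 3.58.1 in R 4.3.3 (12 residual degrees of freedom, 14.4 after eBayes), and p-values were adjusted over 19938 genes within each of 9 comparisons. The number of arrays limits the precision: over all genes, 95% intervals of a maturation change had a median half-width of 0.27. The fit was tested on simulated data.

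The members, lists and tests were chosen with earlier results of these data known. All members were named, and from each list up to 3 genes per direction with the largest called change in CTRL and no overlap of arrays. Outside this rule, Il4ra, Jak2, Socs4, Socs6 and Socs7 were named from the lists. Stages follow the labels, although in the CTRL pair 2 the code letters of the stages are swapped. Codes of all GF arrays and of part of the others end in an r of unknown meaning, which was tried as a covariate. As no GF array lacks the r, its effect was estimated from the CTRL and Ifnar1-KO arrays. In GF minus CTRL within a stage, the r and the housing cannot be fully told apart.

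Replicate numbers were checked for pairing by the correlation of deviations from group means across stages: 0.188, 0.147 and 0.1001 in CTRL, 0.284, 0.321 and 0.236 in Ifnar1-KO, and 0.267, 0.00354 and 0.0296 in GF. CTRL and Ifnar1-KO thus met the limit of 0.1 for every pair and GF did not, and the unblocked fit was kept as the main one.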

Additional observations from a re-analysis of the deposited data

How the results depend on the processing

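Each comparison was refitted with array weights, with an intensity trend in the moderation, over the brighter genes alone (mean at least that of the median gene), after centring of each array, with probesets of a gene averaged, with the groups compared alone, with a replicate block, with the trailing r as a covariate, and without each array in turn. No result changed direction past the test. Stat3, Stat4, Stat5a, Stat6 and Socs2 passed in the maturation of all 3 backgrounds in every one of these fits. Leaving out single arrays gave 0 to 1 of the 9 genes called for GF minus CTRL in CCR7- cells, the 1 being Socs2 (-1.65, adjusted p 0.0155) without GF CCR7- replicate 1. Stat2 fell with maturation in CTRL with array weights (-0.90, adjusted p 0.00619) and with the groups compared alone (0.00531), and in Ifnar1-KO without Ifnar1-KO CCR7+ replicate 1 (-1.13, 0.0315), whereas without replicate 2 of that group it was -0.24 (0.50). Without both arrays of Ifnar1-KO pair 2, a choice made after the data were seen, it passed in CTRL (0.00129) and GF (0.0278). Socs1 passed in CTRL with array weights (0.24, adjusted p 0.0433). Using the replicate pairs as a block, 6 of the 9 genes were called in CTRL, 7 in Ifnar1-KO and 5 in GF, Stat2 being the addition in the first 2, and the block changed no other call; the GF numbers did not meet the limit for pairing. The causes of these changes were not tested.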
